A study of Mus musculus with 10 samples.

Results

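The integrated stress response genes described here are Atf4, Ddit3, Trib3, Ddit4, Slc7a11, Herpud1, Atf3, Asns, Chac1 and Sesn2, 10 of the 18193 genes that had a probe set of a single gene symbol on the arrays. They were taken by gene symbol, which gave 18 of the 45037 probe sets without controls, and each gene is represented by the probe set with the highest mean over the 10 arrays unless another is named. The 10 genes were chosen by their pathway and by measured values, the higher signals of several of them 4 h after withdrawal, so that values from that comparison are a description and carry no test. All 18 probe sets are accounted for, and no filter on low values was applied.

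The cells were mouse haematopoietic progenitors transduced with a retrovirus for EGFP and HOXB4, a homeobox transcription factor. HOXB4-ER is a fusion that moves into the nucleus when 4-hydroxytamoxifen (TMX) is added, and HOXB4const is the protein without that fusion, active with or without TMX. All cultures, controls included, grew for 14 days in serum-free medium with 10 nM TMX and the cytokines SCF, FLT3 ligand, IL-11 and IL-3. Cells carrying EGFP, Sca1 and c-kit but no lineage antigen (LSK cells) were then sorted, and they stayed in TMX for another 12 h before the cultures were divided. The 5 groups had 2 biological replicates each. For HOXB4-ER these were a control kept in 10 nM TMX and harvested at 1 h, and cells harvested 1 h or 4 h after TMX was withdrawn. For HOXB4const they were a control in 10 nM TMX and withdrawn cells, both harvested at 1 h. Every group therefore carried a retroviral HOXB4 transgene. A HOXB4-ER control harvested at 4 h in TMX was not analysed here, so that time in culture and loss of TMX cannot be told apart at 4 h. The labels do not give the animals behind a replicate number, so p-values measure the spread between these samples only.

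The integrated stress response begins when kinases that sense amino acid shortage, misfolded protein in the endoplasmic reticulum, haem deficiency or viral RNA phosphorylate the translation factor eIF2. General protein synthesis then falls while translation of the ATF4 messenger RNA increases, and ATF4 protein switches on genes for amino acid supply, redox balance and, under lasting stress, cell death. Blood stem cells are known to depend on tight control of protein synthesis, and this pathway is one of its regulators.

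The deposited values are log2 signals, in which a difference of 1 stands for a doubled signal. Array medians ran from 3.96 to 5.32, the highest on the HOXB4const array without TMX of replicate 1, and the median of the probe sets' mean levels was 4.05. Levels of the 10 measured LSK and progenitor markers varied, with 0 of them below the median level on their means. On the 10 arrays Kit read 8.72 to 10.93 and Cd34 10.78 to 11.86. Flt3 read 5.70 to 8.11, Procr 4.79 to 7.77 and Slamf1 3.47 to 5.68. Ly6a (Sca1) was not analysed here. Arrays of replicate 1 and of replicate 2 stood apart in every group. The summed signal of 10 monocyte and macrophage markers was 9520 to 14100 on replicate 1 arrays and 1290 to 2340 on replicate 2 arrays (linear units), and for Gapdh the 3′ control signal exceeded the 5′ one, a measure of RNA integrity and amplified length, by 0.74 to 1.42 and by 1.48 to 3.98. In such bulk samples, fewer cells of a type and less RNA per cell cannot be told apart. Differences are therefore also given between arrays of the same replicate number. The Gapdh gap differed within the numbers too. For HOXB4-ER after 4 h it was 1.42 and 3.47 (replicates 1 and 2), against 1.04 and 1.74 with TMX. Its part in the 4 h differences was not tested.

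After 4 h without TMX, all 10 genes stood higher in HOXB4-ER cells than with TMX at 1 h, on the array means and within each replicate number. For 7 of them, Ddit4, Slc7a11, Chac1, Ddit3, Herpud1, Trib3 and Asns, both 4 h arrays lay above both arrays with TMX. Over all 18193 genes, 51.7% stood higher and 15.9% did so without overlap. The median difference of the 10 genes was 1.26 against 0.02 over all genes, and 6 of the 10 were more than 1 higher, against 8.78% of all genes. The fit across all probe sets (limma) called 0% of them at an adjusted p under 0.05 and 3.35% at an unadjusted p under 0.05. These genes were listed because of this comparison, so nothing is read from their counts.

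**Figure D1:**
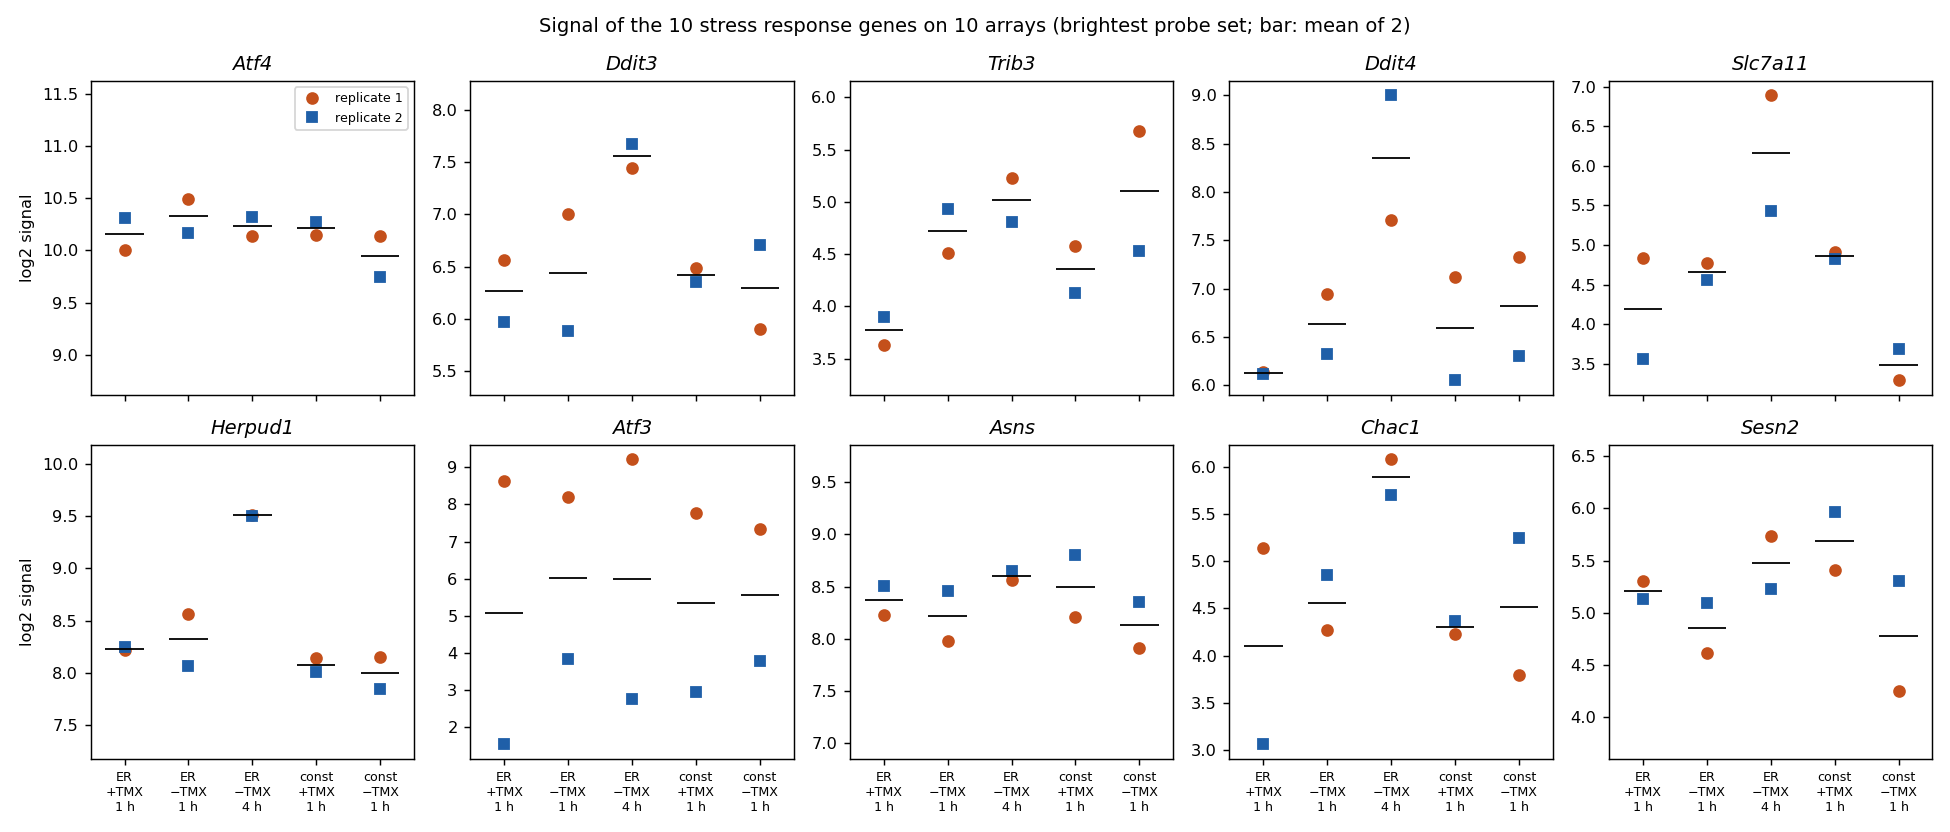
Log2 signal (vertical axes, each at its own height) of the 10 genes by group on all 10 arrays, with replicate 1 as circles, replicate 2 as squares and a bar at the mean of the 2. Herpud1 read 9.51 and 9.50 after 4 h against 7.85 to 8.56 on the other 8 arrays, and Atf3 split by replicate number in every group.

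The transcription factor genes at the head of the pathway differed in pattern. Atf4 is controlled mainly through its translation, and its messenger RNA was nearly level. In HOXB4-ER cells it read 10.00 and 10.31 with TMX, 10.49 and 10.17 after 1 h without TMX, and 10.14 and 10.32 after 4 h (replicates 1 and 2). In HOXB4const cells it read 10.15 and 10.27 with TMX and 10.14 and 9.75 without it. Both HOXB4const arrays without TMX lay below both with TMX and below both HOXB4-ER arrays at 1 h without TMX. The HOXB4-ER groups overlapped each other, and the 4 h difference was 0.07 ± 0.42 (SE of the fit, here and below). The other probe sets of Atf4 gave 0.03 ± 0.82 for 1438992_x_at, whose suffix marks probes that can match other transcripts, and −0.71 ± 1.03 for the dim 1439258_at, which lay above only 5.89% of probe sets.

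Ddit3 encodes CHOP, a factor that acts with and after ATF4 and promotes cell death under lasting stress. It read 6.56 and 5.97 with TMX, 7.0 and 5.88 after 1 h without TMX, and 7.44 and 7.67 after 4 h in HOXB4-ER cells, and between 5.90 and 6.71 on the 4 HOXB4const arrays. Both 4 h arrays were the highest of the 10. The difference to the arrays with TMX was 1.29 ± 0.56, a 2.45-fold higher signal, made up of 0.88 within replicate 1 and 1.70 within replicate 2. A dimmer probe set, 1443897_at, gave 3.53 ± 1.37, but its signal with TMX was 1.65 and −0.12, too dim for its fold change to be read.

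Trib3, a pseudokinase that ATF4 and CHOP induce and that dampens both, stood higher without overlap at 1 h as well as at 4 h, as did Ddit4. It read 3.63 and 3.90 with TMX, 4.51 and 4.93 after 1 h and 5.23 and 4.81 after 4 h in HOXB4-ER cells. In HOXB4const cells it read 4.58 and 4.13 with TMX and 5.68 and 4.53 without it. The HOXB4-ER arrays with TMX were the lowest of the 10, and the 1 h and 4 h arrays overlapped each other. The difference was 0.95 ± 0.53 at 1 h and 1.25 ± 0.53 at 4 h. The 1 h value was 0.56 with each array centred on its median and 0.58 with quantile normalization. The second probe set, 1456225_x_at, whose suffix again marks probes that can match other transcripts, gave 1.31 ± 0.72 and 1.46 ± 0.72. At 4 h it overlapped, with 2.99 within replicate 1 and −0.07 within replicate 2.

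Among the effectors, Ddit4 (REDD1), which restrains the growth kinase complex mTORC1, had the highest 4 h difference. It read 6.14 and 6.12 with TMX, 6.94 and 6.32 after 1 h, and 7.71 and 9.0 after 4 h in HOXB4-ER cells. In HOXB4const cells it read 7.12 and 6.05 with TMX and 7.33 and 6.30 without. The signal was thus higher at 4 h than on all other arrays. The 4 h difference was 2.23 ± 0.67, or 4.68-fold, with 1.57 within replicate 1 and 2.88 within replicate 2. Sesn2, a leucine sensor that also restrains mTORC1, did not share this pattern: its 4 h arrays read 5.73 and 5.23 against 5.30 and 5.13 with TMX, with overlap. The other Sesn2 probe set, 1425139_at, gave −0.15 ± 1.57, with 1.10 within replicate 1 and −1.40 within replicate 2.

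Slc7a11 encodes the cystine importer that feeds glutathione synthesis. It read 4.83 and 3.56 with TMX, 4.77 and 4.56 after 1 h, and 6.89 and 5.43 after 4 h in HOXB4-ER cells. On HOXB4const arrays it read 4.91 and 4.82 with TMX and 3.29 and 3.69 without. The 4 h arrays were the highest of the 10, and the HOXB4const arrays without TMX lay below those with TMX. The 4 h difference was 1.97 ± 0.65, or 3.91-fold, at 2.06 within replicate 1 and 1.87 within replicate 2. Without the replicate 1 array at 4 h it was 1.24. The dimmer Slc7a11 probe set, 1443536_at, gave 3.07 ± 1.97, but its signal with TMX was 2.22 and −1.51, too dim for its fold change to be read. Chac1, an enzyme that breaks down glutathione, read 5.14 and 3.06 with TMX, 4.27 and 4.85 after 1 h and 6.08 and 5.70 after 4 h. Its HOXB4const arrays read 4.23 and 4.37 with TMX and 3.79 and 5.25 without. The 4 h arrays were again the highest, with a difference of 1.78 ± 0.79, but the arrays with TMX were 2.08 apart, and the within-replicate differences were 0.93 and 2.64. Without the replicate 2 array with TMX the difference was 0.74, and without the replicate 1 array with TMX it was 2.83.

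Herpud1 encodes a protein of endoplasmic reticulum-associated degradation and is induced by misfolded protein. Its brightest probe set, 1448185_at, had the closest replicates: 8.22 and 8.25 with TMX, 8.56 and 8.07 after 1 h, and 9.51 and 9.50 after 4 h, with 8.14 and 8.01 in HOXB4const cells with TMX and 8.15 and 7.85 without. Both 4 h arrays lay above the other 8. The 4 h difference was 1.27 ± 0.41 (2.42-fold), at 1.30 and 1.25 within the replicate numbers. The second probe set, 1435626_a_at, did not follow it: 7.27 and 6.68 with TMX against 7.98 and 6.41 after 4 h, a difference of 0.23 ± 0.68. Asns, which makes asparagine and is a classical ATF4 target, read 8.56 and 8.65 after 4 h against 8.23 and 8.51 with TMX. Its arrays did not overlap, but the difference was 0.23 ± 0.45, smaller than its standard error. The second Asns probe set, 1433966_x_at, did overlap, at 8.45 and 8.58 after 4 h against 8.05 and 8.61 with TMX. It gave 0.19 ± 0.70.

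**Figure D2:**
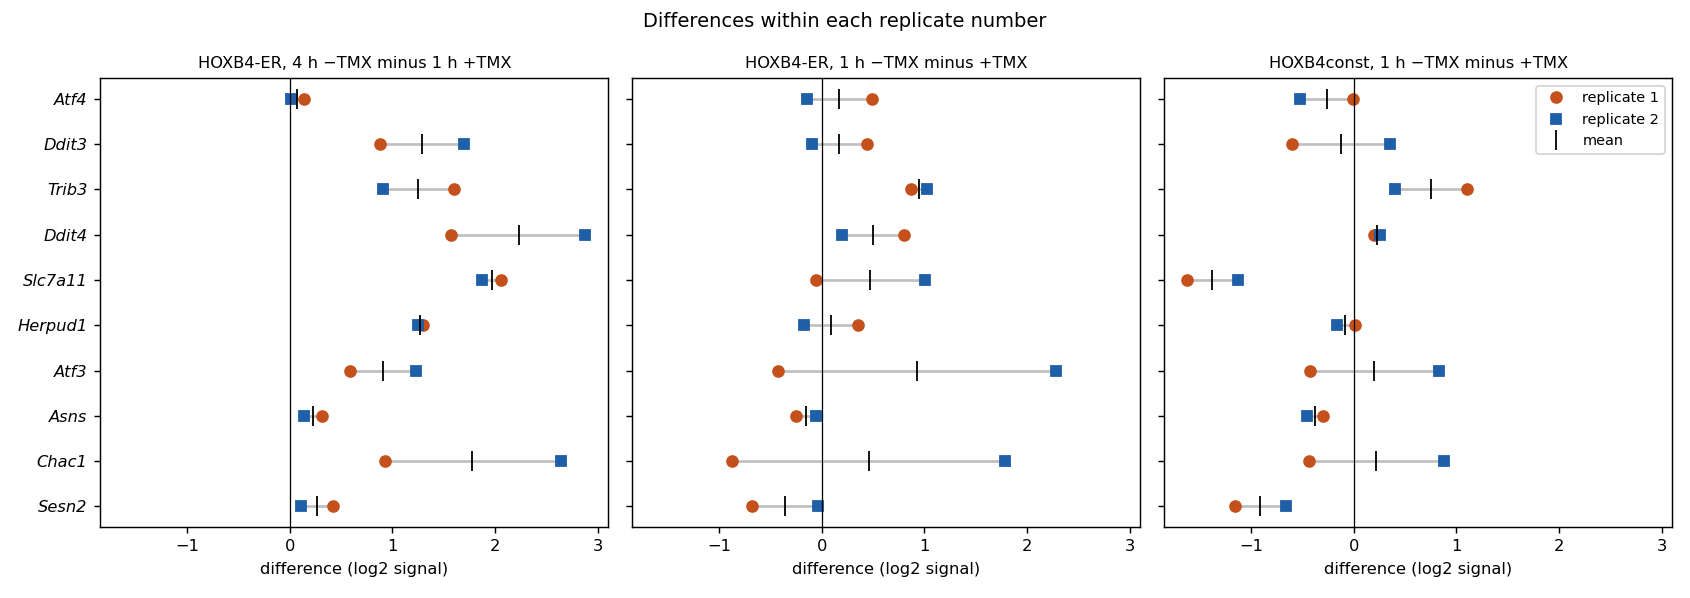
Differences in log2 signal (horizontal axis) of the 10 genes within replicate 1 (circles) and within replicate 2 (squares), with a tick at the mean, for HOXB4-ER after 4 h and 1 h without TMX and for HOXB4const. In the 4 h panel all 20 points lie above 0, from 0.01 for Atf4 to 2.88 for Ddit4, while in the other panels points lie on both sides.

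Promoter sequences were set beside these values because several of the genes stood higher together at 4 h. The C/EBP-ATF response element, to which ATF4 binds, was searched as TGATGNAA on both strands in the 250 bases before the transcript start that RefSeq's promoter table (GRCm38.p6) gives for each gene. For 9 genes that start is the outermost of the gene, and for Slc7a11 it lies 55474 bases inside the annotated gene, before another of its transcripts. All 10 genes matched a promoter, and 5 of the 10 held the element, as did 3.45% of the 32851 promoters. The genes were chosen as members of the ATF4 pathway, so these shares are not independent of the choice. They carry no test, and a part of ATF4 in the 4 h values was not tested. The endoplasmic reticulum stress element II (ERSE-II), searched on both strands, was in the Herpud1 promoter and in 0.0304% of all promoters, and the longer endoplasmic reticulum stress element (ERSE) was in 0 of the 10 and in 0.113% of all. The matches did not overlap each other. A match describes the letters and not a bound site, and no match in the windows of Atf4, Ddit3, Trib3, Ddit4 and Sesn2 says only that these letters are not there. The stretches that hold matches are shown 5′ to 3′ on the strand of the gene, with the matched elements in capitals.
Slc7a11 (chr3:50443614-50443719, minus strand): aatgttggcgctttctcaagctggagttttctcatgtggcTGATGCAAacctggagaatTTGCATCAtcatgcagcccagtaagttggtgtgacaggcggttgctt
Herpud1 (chr8:94386277-94386427, plus strand): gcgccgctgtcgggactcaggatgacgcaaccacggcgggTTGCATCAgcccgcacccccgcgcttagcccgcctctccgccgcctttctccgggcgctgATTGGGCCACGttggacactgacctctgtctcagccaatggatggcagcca
Chac1 (chr2:119351009-119351096, plus strand): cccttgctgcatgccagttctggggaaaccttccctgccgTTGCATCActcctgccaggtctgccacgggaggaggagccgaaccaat
Atf3 (chr1:191183396-191183483, minus strand): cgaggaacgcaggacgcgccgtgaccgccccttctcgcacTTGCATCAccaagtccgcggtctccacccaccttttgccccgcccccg
Asns (chr6:7693210-7693272, minus strand): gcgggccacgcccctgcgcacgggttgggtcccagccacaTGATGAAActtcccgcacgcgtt

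The Slc7a11 promoter held 2 copies of the ATF4 element in opposite orientations, the first starting 66 and the second 47 bases before the start. Herpud1 held 1 copy, 112 bases before the start, and the endoplasmic reticulum stress element II 52 bases before it. Single copies began 193 bases before the start of Chac1, 110 before that of Atf3 and 23 before that of Asns. Of the 5 genes with the element, Slc7a11, Chac1 and Herpud1 were more than 1 higher at 4 h and Atf3 and Asns were not. Of the 5 without it, Ddit3, Trib3 and Ddit4 were more than 1 higher.

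At 1 h without TMX, the HOXB4-ER cells had not reached the 4 h levels for most of these genes. The median difference from the arrays with TMX was 0.32, against 0.07 over all genes, and 8 of the 10 stood higher, against 55.2% of all genes. These arrays are compared with the same control arrays as the 4 h ones, so both sets of differences share them and these too are given as a description. Both arrays lay above both controls for Trib3 and Ddit4 only among the 10, against 19.4% of all genes, and both lay below for Sesn2, against 11.2%. The other Sesn2 probe set stood higher without overlap at 1 h, by 1.40 ± 1.57, and the mean of both gave 0.52. Limma gave 4.76% of probe sets an unadjusted p under 0.05. Ddit4 gave 0.50 ± 0.67, Slc7a11 0.47 ± 0.65, Chac1 0.46 ± 0.79, Ddit3 0.17 ± 0.56 and Herpud1 0.09 ± 0.41. The array medians were 0.38 higher without TMX, and with each array centred on its median 5 of the 10 stood higher. Without the replicate 2 array with TMX, 4 of the 10 did; that array had the lowest Chac1, Slc7a11 and Atf3 values of its construct.

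Set against the 1 h arrays without TMX in place of the arrays with TMX, the 4 h arrays stood higher for 8 of the 10 genes, against 46.5% of all genes, with a median of 0.87 against −0.06. There was no overlap for 7 of them, against 15.2% of all genes: Ddit4 (1.72 ± 0.67), Slc7a11 (1.49 ± 0.65), Chac1 (1.33 ± 0.79), Herpud1 (1.19 ± 0.41), Ddit3 (1.12 ± 0.56), Sesn2 (0.63 ± 0.53) and Asns (0.38 ± 0.45). The other Sesn2 probe set, 1425139_at, went the opposite way, lower without overlap by −1.55 ± 1.57, and the mean of both Sesn2 probe sets gave −0.46. Trib3 gave 0.30 ± 0.53, and 0.72 with median centring and 0.60 with quantile normalization. The array medians were 0.42 lower at 4 h, and with centring 10 of the 10 genes stood higher. Of the 10, 0 lay lower without overlap, against 21.2% of all genes. This comparison uses the same 4 h arrays, so it is no separate check of the first.

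HOXB4const cells addressed whether TMX itself moves these genes, and their 4 arrays took no part in choosing them. None of the 10 genes passed limma's test (adjusted p = 1 for each), where 0% of the 45037 probe sets passed and 4.34% had an unadjusted p under 0.05. Without TMX 4 of the 10 genes stood higher, against 52.1% of all genes, and the median was −0.10 against 0.02. The array medians were 0.31 higher without TMX, and with each array centred on its median 1 of the 10 stood higher, Trib3.

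Of the 6 genes more than 1 higher after 4 h in HOXB4-ER cells, Trib3 stood higher here, Slc7a11 lower, and the rest were nearer to level. These are 1 h differences, and at 1 h Herpud1 (0.09) and Ddit3 (0.17) were near level in HOXB4-ER cells as well. In HOXB4const cells Ddit4 differed by 0.23 ± 0.67 (95% confidence interval −1.33 to 1.79) and Chac1 by 0.22 ± 0.79 (−1.65 to 2.08). Herpud1 differed by −0.08 ± 0.41 (−1.05 to 0.89) and Ddit3 by −0.12 ± 0.56 (−1.43 to 1.18). The intervals are wide, so that these values do not show an absence of change. Slc7a11 gave −1.38 ± 0.65 (−2.90 to 0.15), lower within both replicate numbers, and Sesn2 −0.91 ± 0.53 (−2.15 to 0.33), also lower within both. Trib3 gave 0.75 ± 0.53 (−0.50 to 1.99), higher within both. Both arrays without TMX lay below both with TMX for Slc7a11, Sesn2 and Atf4, 3 of the 10 against 9.92% of all genes, and above for 0 of the 10, against 14% of all genes. The second probe sets did not settle these directions. That of Slc7a11 differed by 0.43 within replicate 1 and −1.15 within replicate 2, that of Sesn2 by 1.69 and −4.13, and that of Trib3 was lower where the first was higher (−1.51 ± 0.72).

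The withdrawal effect at 1 h was also compared between the constructs as an interaction, which shares the HOXB4-ER arrays with TMX with the 4 h comparison and is a description for these genes. On the brightest probe sets it was furthest from 0 for Slc7a11, at 1.85 ± 0.92. For the other 9 genes it lay between 0.16 ± 0.58 for Herpud1 and 0.73 ± 4.55 for Atf3. The second probe sets of Trib3 (2.82 ± 1.02), Slc7a11 (2.97 ± 2.79), Sesn2 (2.62 ± 2.21) and Ddit3 (2.31 ± 1.93) lay further from 0. The brightest Trib3 probe set gave 0.20 ± 0.75. The other probe sets of Atf4, Herpud1 and Asns lay between −0.54 ± 1.16 and −0.07 ± 1.46. Limma called 0% of probe sets, and 3.77% had an unadjusted p under 0.05. No 4 h arrays of HOXB4const cells were analysed here, so the 4 h differences have no counterpart in that construct.

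Without TMX at 1 h, HOXB4-ER cells stood higher than HOXB4const cells for 8 of the 10 genes, against 44.4% of all genes. The median was 0.11 against −0.08. These arrays lie outside the comparison of 4 h without TMX with the arrays with TMX. The HOXB4-ER ones do enter the 1 h and the 4 h against 1 h comparisons, which were known when the genes were chosen. The test is therefore not independent of that choice. None of the 10 passed limma's test, and 0% of all probe sets did, while 6.82% had an unadjusted p under 0.05. The adjusted p of the 10 genes ran from 0.840 for Slc7a11 (1.18 ± 0.65, interval −0.35 to 2.70) to 1 for Chac1 (0.04 ± 0.79). Slc7a11 and Atf4 (0.38 ± 0.42) had both HOXB4-ER arrays above both HOXB4const arrays, against 12% of all genes. Of the other probe sets, only 1456225_x_at of Trib3 did so, at 1.85 ± 0.72 (interval 0.15 to 3.55, limma adjusted p = 0.711). The brightest Trib3 probe set went the opposite way, at −0.39 ± 0.53. Cell composition may have differed as well. The summed signal of 11 granulocyte markers was 15500 to 21600 in HOXB4-ER and 7770 to 8260 in HOXB4const cells (linear units). Of the 11, 9 stood higher in HOXB4-ER cells and 2 lower. Their part in these differences was not tested. With TMX 9 of the 10 genes stood lower in HOXB4-ER cells on the deposited scale, but the array medians were 0.42 lower there too, and 6 of the 10 stood higher with median centring and 3 with quantile normalization. The deposited values gave a median of −0.23 against −0.10 over all genes, of which 41.5% stood higher. Herpud1 lay higher without overlap, against 10.2% of all genes, and Trib3 and Sesn2 lower, against 20.6%, and 4.38% of probe sets had an unadjusted p under 0.05. These arrays with TMX include the controls of the 4 h comparison, so no test is given. Slc7a11 was at −0.67 ± 0.65, Trib3 at −0.59 ± 0.53, Sesn2 at −0.47 ± 0.53, Ddit4 at −0.46 ± 0.67 and Herpud1 at 0.15 ± 0.41.

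Atf3 split by replicate number, by more than it differed between the groups within a number. It encodes a stress-induced repressor of the same factor family as ATF4, and it is also an immediate early gene that many stimuli induce. On the replicate 1 arrays it read 8.63, 8.20 and 9.22 in HOXB4-ER cells (with TMX, and 1 h and 4 h without) and 7.76 and 7.33 in HOXB4const cells (with and without). On the replicate 2 arrays it read 1.53, 3.82 and 2.76 and then 2.95 and 3.78. The 2 sets of arrays did not overlap, with means of 8.23 ± 0.74 and 2.97 ± 0.93 (SD, n = 5 in both). A two-sided exact permutation test gave p = 0.00794, the smallest possible with 5 arrays against 5. The test used all 252 splits of the arrays and ignored their groups. It treated arrays of the same replicate number as independent, although replicate differences correlated between the groups. The genes were also chosen with earlier results of these data known, so this p-value only describes the separation. A gap without overlap was found for 3.11% of all genes with replicate 1 on top, and for 4.81% with replicate 2 on top.

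With the group as a factor, the replicate 2 minus replicate 1 difference of Atf3 was −5.26 ± 0.58 in limma's fit, lower on replicate 2 in 5 of 5 groups. Its unadjusted p was 0.000125 and its adjusted p 0.134, where 0% of the 45037 probe sets passed and 13.7% had an unadjusted p under 0.05. It passed among the 22519 brighter probe sets (limma adjusted p = 0.0231, 850 of them called), with a variance trend in the fit (adjusted p = 9.46e-06, 2728 called) and without the group factor (adjusted p = 0.00592, 343 called). Its levels on replicate 2 lie below the median level of the probe sets, so the gap should not be read as a fold change. Within the replicate numbers, Atf3 differed at 4 h by 0.59 and 1.23 from the arrays with TMX, at 1 h by −0.43 and 2.28, and in HOXB4const cells by −0.43 and 0.83. These are small beside the gap between the numbers, and leaving out any 1 of the 4 arrays of the 4 h comparison moved its difference to between −2.64 and 4.46.

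The dimmer Slc7a11 probe set, 1443536_at, was also lower on replicate 2, with a slight overlap. It read 2.22 to 4.98 on replicate 1 and −1.51 to 2.31 on replicate 2 arrays, and the difference of −3.18 ± 0.39 was lower in 5 of 5 groups but did not pass (limma adjusted p = 0.148). The brightest Slc7a11 probe set gave −0.52 ± 0.36 in the same comparison (adjusted p = 0.571). The Herpud1 probe set that did not follow the 4 h pattern, 1435626_a_at, lay at 7.17 to 7.98 on replicate 1 and 6.24 to 6.68 on replicate 2 arrays, a difference of −0.87 ± 0.27 (adjusted p = 0.279). On the deposited scale Asns was the only 1 of the 10 genes to stand higher on replicate 2 in 5 of 5 groups, by 0.38 ± 0.22 (adjusted p = 0.501), against 10.9% of all genes, and Atf3 the only 1 to stand lower in all 5, against 8.98%. The second Asns probe set stood higher on replicate 2 in 4 of 5 groups, by 0.67 ± 0.37 (limma adjusted p = 0.483). All 10 monocyte and macrophage markers were lower on replicate 2, with a median difference of −2.50, and Csf1r read 10.43 to 11.39 and 6.80 to 8.56. So were 10 of 11 granulocyte markers (median −1.67) and 6 of 9 mast cell and basophil markers (−1.06). Of the 10 LSK and progenitor markers, 7 were higher on replicate 2 (median 0.58). The Gapdh difference given above split by the same numbers as these markers. Their part in the Atf3 and Slc7a11 values was not tested. At 4 h the monocyte and macrophage marker sums were 9818 and 1291, against 10940 and 1360 with TMX.

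**Figure D3:**
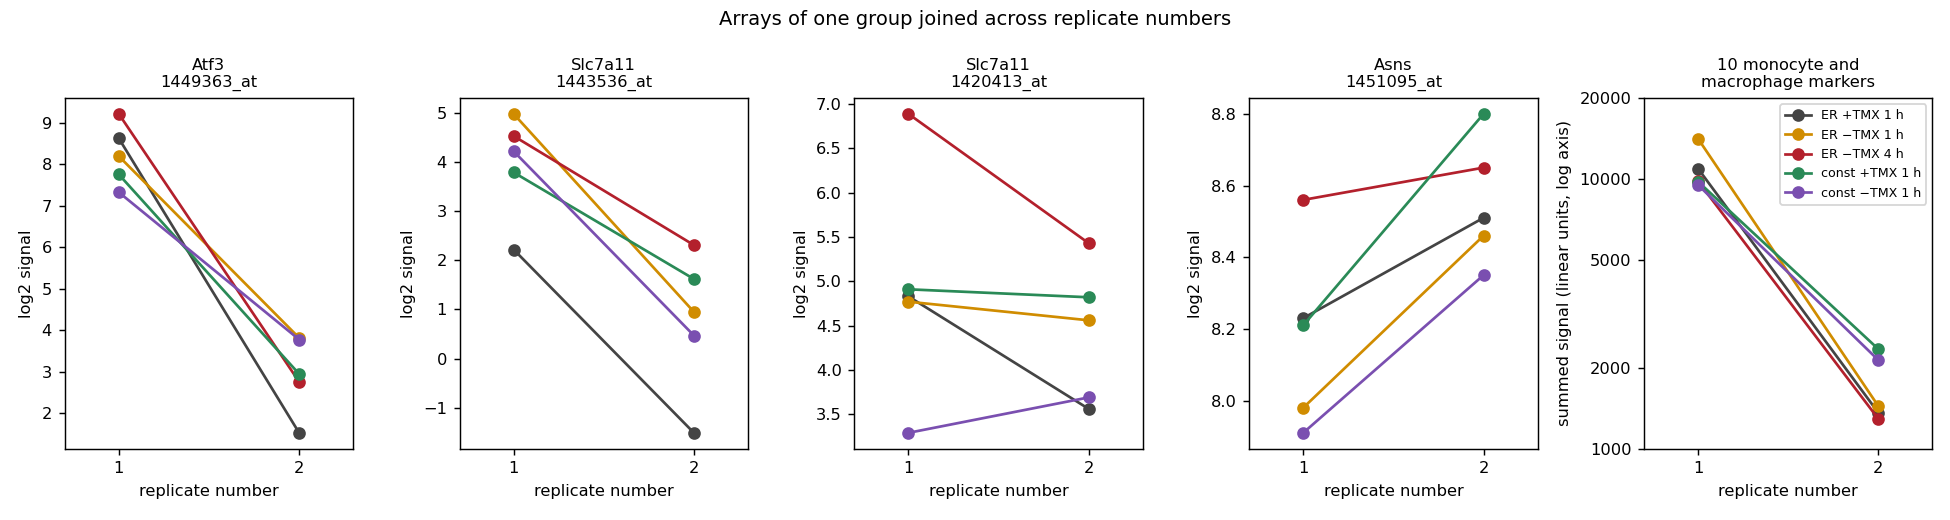
Log2 signal of 4 probe sets of Atf3, Slc7a11 and Asns, and the summed linear signal of 10 monocyte and macrophage markers on a log axis, against replicate number, with a line for each of the 5 groups. The Atf3 lines fall from 7.33 to 9.22 down to 1.53 to 3.82, as the marker sums fall from 9520 to 14100 down to 1290 to 2340, while the brightest Slc7a11 probe set keeps the 4 h group on top at both numbers.

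Other genes of the pathway were taken from 7 lists of 120 symbols, of which 109 were measured and 102 of these lay at or above the median level. After 4 h, 70 of the 109 stood higher, against 51.7% of all genes, with a median of 0.13 against 0.02. There was no overlap for 34 higher and 11 lower genes, against 15.9% and 13.8% of all genes. None passed limma's test, and 3 had an unadjusted p under 0.05, all higher.

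Among the lists, the 22 other ATF4 and CHOP pathway genes had the highest 4 h median, at 0.45 with 17 higher, followed by 0.22 for 16 mTORC1 brakes and sensors (10 higher), 0.16 for 11 glutathione and cystine redox genes (8 higher) and 0.13 for 13 eIF2 kinase, phosphatase and exchange factor genes (9 higher). The gene sets of amino acid supply were nearer to 0: the median was 0.10 for 15 amino acid and one-carbon synthesis genes (9 higher), 0.04 for 13 amino acid transporters (7 higher) and 0.02 for 19 aminoacyl-tRNA synthetases and the tRNA exporter (10 higher). Asns, with 0.23, lay among these. In HOXB4const cells the medians of the 7 lists ran from −0.22 to −0.02, with 32 of the 109 genes higher, against 52.1% of all genes. All genes were not matched to the mostly brighter list genes for signal level. Outside the pathway, 2 of 10 monocyte and macrophage, 2 of 11 granulocyte and 4 of 10 LSK and progenitor markers stood higher there. For mast cell and basophil markers it was 7 of 9. The low share is thus not shown to be particular to the pathway.

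The highest 4 h differences among the brighter genes of these lists were 1.71 ± 0.62 for Bbc3, which encodes the death protein PUMA and is a target of both p53 and CHOP, and 1.70 ± 0.54 for Cbs, an enzyme of cysteine synthesis. Bbc3 read 5.05 and 4.70 with TMX and 6.72 and 6.45 after 4 h, without overlap, but HOXB4const cells with TMX were at 5.97 and 5.72. Cbs read 2.89 and 3.34 with TMX, 4.63 and 5.07 after 1 h and 4.89 and 4.74 after 4 h, while HOXB4const cells were at 4.36 to 5.69, so that its low values were those of the HOXB4-ER arrays with TMX. The lowest were −1.04 ± 0.91 for Ddit4l, a relative of Ddit4, and −0.91 ± 0.59 for Vldlr, a lipoprotein receptor. None of these 4 passed (limma adjusted p = 1).

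**Figure D4:**
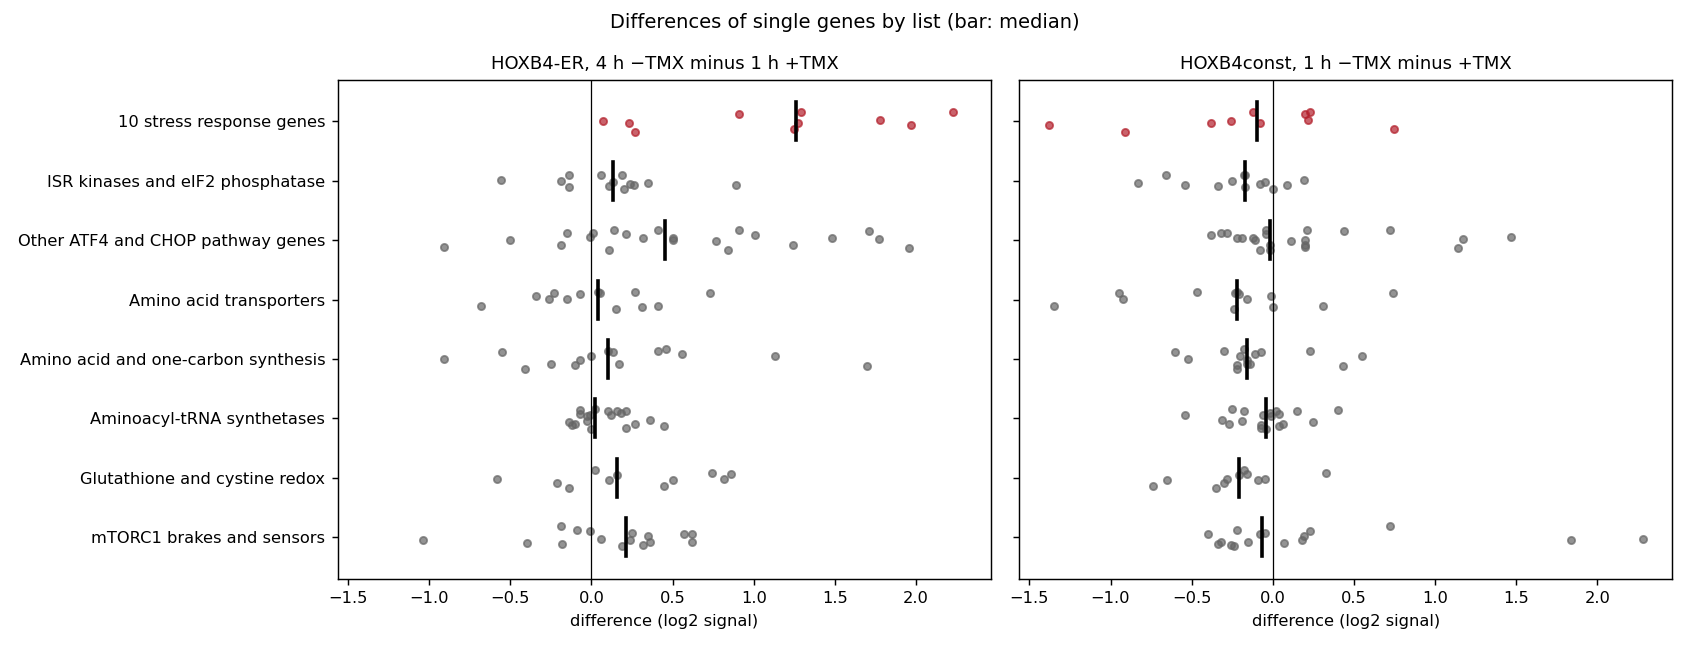
Differences in log2 signal (horizontal axis) of single genes, a point for each, in the 10 stress response genes and the 7 pathway lists, with a bar at each median, for HOXB4-ER after 4 h without TMX (left) and HOXB4const after 1 h without TMX (right). On the left the medians run from 0.02 to 0.45 for the lists and reach 1.26 for the 10 genes. Genes and lists were both chosen with earlier results of these data known, and the 10 genes with this comparison known. On the right all 8 medians lie between −0.22 and −0.02.

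The genes whose signal over the 10 arrays was most like the mean of the 10 stress response genes, each taken as the deviation from its own mean, were Cd274 (Pearson r = 0.914), Mfsd12 (0.912), 1600012H06Rik (0.911), Mad2l1bp (0.902) and Klf3 (0.897), the highest of 11328 brighter genes. This order rests on Atf3: with the mean of the other 9 genes, an alternative chosen after seeing the data, 0 of these 5 stayed among the first 5, and they ranked 26 to 279. The first 5 were then Ric8b (0.963), Kdm3a (0.944), Akna (0.941), Mxd1 (0.916) and Ensa (0.914). The mean deviation was 1.13 and 0.39 on the 4 h arrays and 0.15 and −0.89 on the HOXB4-ER arrays with TMX. Its split by replicate number came mostly from Atf3: without that gene the values were 0.85 and 0.74 after 4 h, −0.17 and −0.53 with TMX, −0.05 and −0.14 after 1 h without TMX, −0.04 and −0.09 in HOXB4const cells with TMX and −0.35 and −0.21 without. Both 4 h arrays stood above the other 8 in the mean of the 9 genes. The genes were listed with the 4 h values known, so this order and the correlations above are a description only.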

How the data were processed

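Affymetrix mouse genome arrays measured total RNA of 10 samples, amplified linearly with T7 polymerase per the labels. The deposited table holds log2 signals, for which GCOS and RMA stand in the submitters' processing notes, without their roles. On every array the mean of the unlogged values, trimmed at both ends, was the same and quantiles differed between arrays, as with scaled GCOS signals, so the values were not normalized again. How background was corrected is not stated in the labels. The platform annotation gave 1 symbol for 34945 of 45037 probe sets, several for 932 and none for 9160, and 64 controls were left out.

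Differences were fitted with limma 3.58.1 (R 4.3.3) over all 10 arrays with 1 mean per group (5 residual and 2.21 prior degrees of freedom), two-sided, with Benjamini-Hochberg adjustment over all probe sets and a threshold of 0.05. The replicate comparison had the group as a factor. The fit was tested on simulated data. The genes and lists were chosen with earlier results of these data known. Named were the 10 genes, the 2 highest and 2 lowest brighter pathway genes at 4 h, and the 5 most alike. Replicate numbers pair the samples by the data: replicate 2 minus replicate 1 differences correlated in 10 of 10 pairs of groups (0.21 to 0.527). The alternatives were a replicate block, median centring, quantile normalization, a floor, a level filter, a variance trend, fewer groups, a gene's averaged probe sets and each array left out. The number of arrays limits the precision.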

Additional observations from a re-analysis of the deposited data

How the results depend on the processing

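With the replicate block, limma called 0 probe sets in each comparison between groups, as without it, and the 4 h count of higher genes was again 10 of 10; the block changed no call. In the 4 h comparison 9 or 10 of the 10 genes stood higher under each alternative, counts that were chosen as alternatives after seeing the data, and the median ran from 0.87 (without the replicate 2 array with TMX) to 1.42 with 1 array left out. Without any 1 of the 4 arrays compared, 1 gene turned, Atf3 or Atf4. The number of higher genes ran from 4 to 9 for HOXB4-ER at 1 h, from 1 to 5 for HOXB4const and from 6 to 9 between the constructs without TMX. The 2 arrays of each group, and dim signals such as Atf3 on replicate 2, limit all values.

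A floor of 3 gave 2 calls between the constructs without TMX, 1 with TMX, 1 for the interaction and 9 between replicate numbers. The replicate comparison gave 850 calls in the brighter probe sets, 2728 with a variance trend and 343 without the group factor.

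No difference whose sign turned had passed the test. In the HOXB4-ER comparisons, the mean of the probe sets gave −0.2 for Atf4 at 4 h, 0.52 for Sesn2 at 1 h and −0.46 for Sesn2 at 4 h against 1 h. Centring gave −0.21 for Atf4, −0.21 for Ddit3 and −0.3 for Herpud1 at 1 h, and 0.31 for Atf4 and 0.4 for Atf3 at 4 h against 1 h, where Atf3 was also at 0.25 with quantile normalization and 0.1 with a floor of 3. In the interaction, the probe set mean gave −0.06 for Atf4 and −0.01 for Asns. With 1 array left out, 2 genes turned in each 4 h comparison, 6 at 1 h, 6 between the constructs with TMX and 7 in the interaction. In HOXB4const cells, centring gave −0.08 for Ddit4, −0.11 for Atf3 and −0.09 for Chac1. Quantile normalization gave 0.02 for Herpud1 and −0.01 for Chac1, and averaging the probe sets of a gene gave 0.25 for Atf4, −0.38 for Trib3 and 0.02 for Herpud1. With 1 array left out, Ddit3 ran from −0.53 to 0.28, Ddit4 from −0.31 to 0.77, Herpud1 from −0.23 to 0.07, Atf3 from −2.2 to 2.6 and Chac1 from −0.51 to 0.95. Between the constructs without TMX, the probe set mean gave 0.73 for Trib3 and centring 0.15 for Ddit4. With 1 array left out, Ddit3 ran from −0.42 to 0.7, Trib3 from −0.96 to 0.18, Ddit4 from −0.7 to 0.33, Atf3 from −1.74 to 2.65, Asns from −0.15 to 0.33, Chac1 from −0.69 to 0.77 and Sesn2 from −0.45 to 0.6.

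Between replicate numbers, centring gave 0.3 for Atf4, 0.16 for Ddit3, 0.05 for Trib3, 0.03 for Ddit4, 0.14 for Herpud1 and 0.26 for Chac1. Quantile normalization gave 0.14 for Ddit3, 0.05 for Trib3 and 0.29 for Chac1, and the probe set mean −0.52 for Sesn2. With 1 array left out, Atf4 ran from −0.1 to 0.07, Ddit3 from −0.41 to 0.08 and Chac1 from −0.44 to 0.45. The causes were not tested.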
